A study of Mus musculus with 19 samples.

Results

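The genes described here are 40 genes of the cell cycle and of DNA replication, measured with 1-colour Agilent arrays of the mouse genome. They were found by name among the probes of the arrays, where they account for 40 of 27793 gene names and for 68 probes. They fall into 4 groups by role, namely 5 D-type cyclins and G1 kinases, 6 genes of cyclin E, Cdk2 and the E2F factors, 13 S-phase genes, and 16 genes of G2 and mitosis. For each gene the probe with the highest mean over all 19 arrays was used. A level is the log2 of the processed signal minus the array's 75th percentile, so a level of 0 is that percentile, and levels of different probes were not compared, except that marker lists were summed and their brightest probe named as a description.

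C2C12 cells, a mouse myoblast line from ATCC, carried pIRES neo3 with human HDAC4 and pIRES hyg3 with human HDAC5, or the empty plasmids as control (n = 6 each). Both lines had been transfected stably and selected with hygromycin and geneticin at 500 µg/mL each, and were kept in medium with 10% FBS and harvested after 48 h at about 80% confluency. The sources used here do not say whether a line was a clone or a pool, and a difference between the lines can hold any difference that arose in selection. Soleus muscle, a slow hind limb muscle, came from male C57BL/6J mice at 12 weeks of age after a 5 h fast. It was taken from obese db/db mice (db +/+, n = 4), which lack a working leptin receptor, and from heterozygous littermates as control (db -/+, n = 3). All arrays were labelled from 100 ng of RNA. The 75th percentile of the signal was 538 to 1639 on control C2C12 arrays, 423 to 797 on HDAC4 and 5 arrays, 148 to 497 on control soleus arrays and 164 to 529 on db/db arrays. The labels do not say whether the cell samples came from separate cultures, so p-values measure the spread between these samples, which may be technical. The study's methods name fewer biological replicates a group than there are arrays of each cell line or of db/db muscle, and n here counts arrays.

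D-type cyclins bind Cdk4 or Cdk6 in G1 and phosphorylate the retinoblastoma protein, which frees E2F factors to drive the genes of S phase. Cyclin E with Cdk2 then starts replication, in which Cdc6 and Cdt1 load the Mcm2 to Mcm7 helicase, Pcna clamps the polymerases, and Rrm1, Rrm2, Tyms and Tk1 supply nucleotides. Cyclins A and B with Cdk1 carry the cell through G2 and mitosis, where Plk1 and the Aurora kinases act on the spindle, Bub1 and Bub1b guard chromosome attachment, and Cdc20 switches on the complex that ends mitosis. Myoblasts leave this cycle for good when they fuse into fibres, and the nuclei of adult fibres do not divide.

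The labels were checked first. Mouse Hdac5 had a level of 1.95 to 2.79 on control arrays and 2.91 to 4.53 on HDAC4 and 5 arrays, with no overlap. Its log2 difference was 1.43 (standard error 0.27, adjusted p = 0.000358 from limma). Mouse Hdac4 had a level of 0.24 to 0.51 and 0.19 to 0.52, and its difference of -0.04 did not pass (adjusted p = 0.624). The plasmids carried the human genes, so these mouse probes check the label only as far as they bind human sequence.

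The myoblast label was checked against 8 markers, of which 6 were tested and all 6 were lower in HDAC4 and 5 cells. Myod1, the factor that sets muscle identity, was detected well above background by 6 of 6 control arrays and by 0 of 6 HDAC4 and 5 arrays, and was at least 259-fold lower. (Such a bound sets the brighter group's mean against that of the dimmer group, where each array takes its detection floor, the dimmest probe called well above background, or the probe's own signal if higher.) Des, the muscle intermediate filament, had a log2 difference of -8.44 and Cdh15, the cadherin of myoblasts, one of -5.67 (on 5 control arrays), with their spots saturated on 2 and 5 control arrays and the falls so understated. Myog, which drives differentiation, was well above background on 3 of 6 HDAC4 and 5 arrays and was at least 760.4-fold lower by the same bound, while Chrna1, a surface receptor of muscle saturated on all 6 control arrays, was at least 12.9-fold lower and Ncam1, a surface adhesion protein, had a difference of -2.04. Myf5 and Pax7, factors of early muscle cells, were not well above background on any C2C12 array. The summed signal of the 8 markers, in multiples of the 75th percentile, was 153 to 324 on control arrays, where these saturated spots are its brightest and understate it, and 9.38 to 12.0 on HDAC4 and 5 arrays, led by Chrna1. Of 10 muscle fibre markers, 7 were lower and 1 was higher in HDAC4 and 5 cells, and their summed signal was 45.5 to 47.7 on the 5 control arrays with no dropped marker, led by Acta1, and 0.851 to 0.991, led by Tnnc1. Every difference in C2C12 cells given below thus ran alongside a loss of muscle cell markers, and its part in the cell cycle results was not tested.

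In C2C12 cells with HDAC4 and 5, the D-type cyclins moved apart. Ccnd2 rose 11.3-fold, while Ccnd3 and Cdk6 were 2.38-fold and 2.11-fold lower and Ccnd1 1.31-fold lower. E2f2 was 4.76-fold lower, against small rises of E2f1 and E2f3. The licensing genes Cdt1 and Cdc6, 4 of the 6 helicase genes and 8 of 16 mitotic genes rose, by 2.54-fold at most, while Rrm2 and Cdk1 fell. All 40 genes stood well above background on each of the 12 C2C12 arrays and were tested. Of them, 17 were higher and 6 lower at an adjusted p of 0.05, against 35.4% higher and 31.1% lower of the 14147 genes tested. The share called in either direction was thus 23 of 40 against 66.5% of all genes. The median log2 difference was -0.39 for D-type cyclins and G1 kinases, 0.20 for cyclin E, Cdk2 and E2F, 0.48 for S-phase and 0.30 for G2 and mitosis genes, beside 0.06 for all genes tested. In the authors' deposited matrix, whose scaling is not stated, all genes had a median of -0.12. The S-phase median turned to -0.00 over 11 genes and that of G2 and mitosis to -0.06 over 14. Mcm4, Mcm6, Ccnb2 and Cdc20, with differences of 0.63, 0.48, 0.84 and 0.50 in the main fit, had no value there.

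**Figure D1:**
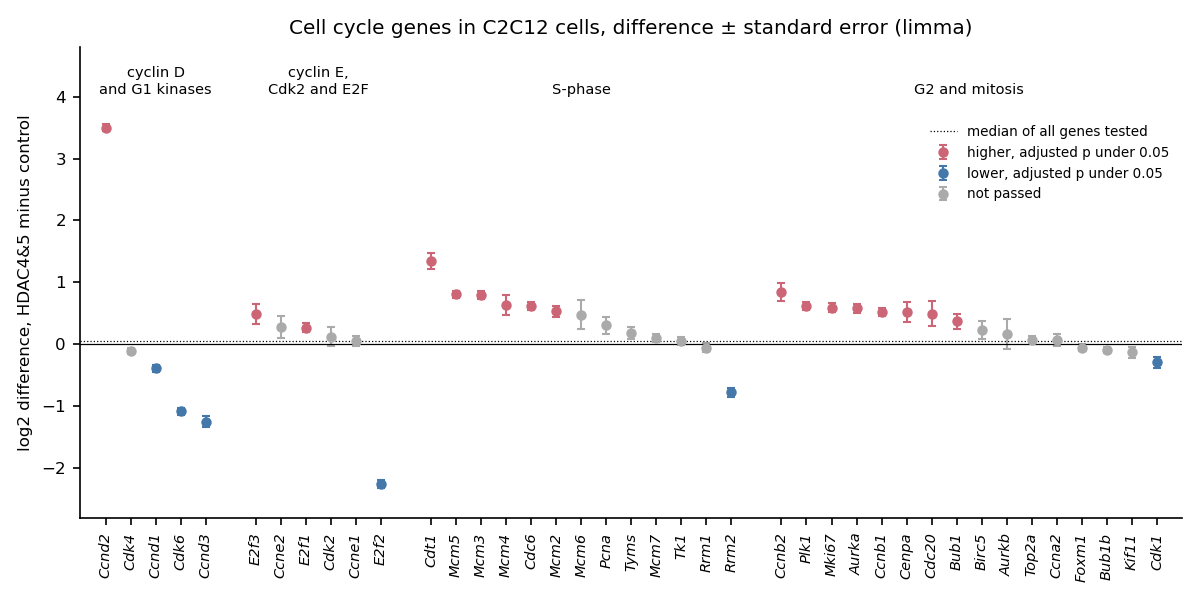
The log2 difference between HDAC4 and 5 and control C2C12 cells (y axis) for each of the 40 genes (x axis), ordered by size within the 4 groups. Points are limma estimates and bars standard errors. Ccnd2 at 3.50 and E2f2 at -2.25 lie far from the rest, and the S-phase and mitotic genes lie between -0.77 and 1.34. Under the deposited matrix the medians of those groups are -0.00 and -0.06. Fewer of their genes have a value there, and the median of all genes is lower there too.

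Ccnd2 encodes cyclin D2, which many dividing cells use in place of cyclin D1. Its level on control arrays was 0.55 at the lowest, 0.66 at the median and 0.82 at the highest. On HDAC4 and 5 arrays it was 4.00, 4.18 and 4.23. The groups lay far apart and neither varied much. The difference was 3.50 (standard error 0.06, adjusted p = 2.72e-14), and within the 3 slides it was 3.56, 3.51 and 3.42. The probe lies on chromosome 6 of mm9 from 127089187 to 127089246. Further probes of the gene, from 127079694 to 127079753 and from 127098696 to 127098755, differed by 3.56 and 3.51.

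Ccnd3, cyclin D3, is the D-type cyclin linked to muscle differentiation. It read 2.89 at the lowest, 3.07 at the median and 3.28 at the highest on control arrays, and 1.63, 1.83 and 1.99 on HDAC4 and 5 arrays. Every HDAC4 and 5 array lay below every control array. The difference was -1.25 (standard error 0.09, adjusted p = 5.36e-08), with -1.18, -1.29 and -1.28 within the slides. Its probe lies on chromosome 17 from 47736267 to 47736326.

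Cdk6, a partner kinase of the D-type cyclins, went the same way. Control arrays ran from 4.34 through a median of 4.40 to 4.49, and HDAC4 and 5 arrays from 3.21 through 3.32 to 3.43. The difference was -1.08 (standard error 0.05, adjusted p = 1.24e-09). The probe lies on chromosome 5 from 3529287 to 3529346, and a dimmer probe of the gene from 3473220 to 3515504, well above background on all 12 arrays, differed by only -0.20.

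Ccnd1, cyclin D1, is induced by growth signals. Its control levels were 2.41, 2.51 and 2.59 at the lowest, median and highest, and those with HDAC4 and 5 were 2.04, 2.11 and 2.18. The groups did not overlap, but the step was small, at -0.39 (standard error 0.05, adjusted p = 1.17e-05). Its probe, on chromosome 7 from 152116173 to 152116232, was spotted 10 times on each array and averaged. Cdk4, the other partner kinase, read 3.63 to 3.84 and 3.52 to 3.70, and its difference of -0.11 did not pass (adjusted p = 0.0873 from limma), but passed with the replicate number as a block (adjusted p = 0.0356).

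**Figure D2:**
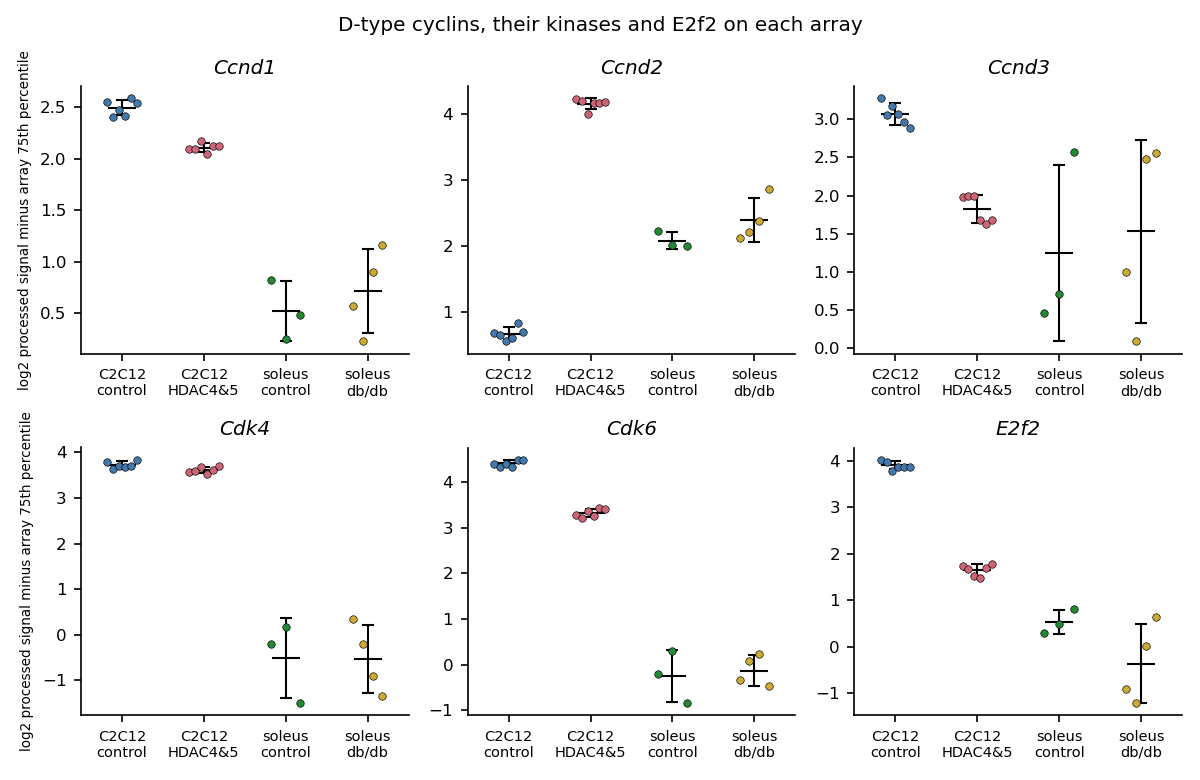
Level of Ccnd1, Ccnd2, Ccnd3, Cdk4, Cdk6 and E2f2 (y axis, log2 signal minus the array's 75th percentile) on each array of the 4 groups (x axis). Points are arrays and bars the mean ± SD. Ccnd2 is lowest in control C2C12 cells (0.66) and highest with HDAC4 and 5 (4.16), with soleus between them, whereas the other genes have their highest mean in control C2C12 cells.

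Among the genes of cyclin E, Cdk2 and E2F, 2 were higher and 1 lower (against 35.4% and 31.1% of all genes tested), and 3 did not pass. E2f2, an activating E2F factor, read 3.79, 3.87 and 4.02 at the lowest, median and highest on control arrays. With HDAC4 and 5 it read 1.48, 1.68 and 1.79. There was no overlap, and the difference of -2.25 (standard error 0.07, adjusted p = 4.49e-12) was -2.30, -2.32 and -2.13 within the slides. The probe lies on chromosome 4 from 135750562 to 135750621.

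The other activating E2F factors differed in the opposite direction. E2f3 read 2.45, 2.57 and 3.19 on control arrays and 2.99, 3.06 and 3.72 with HDAC4 and 5. The ranges overlapped, and the difference was 0.49 (standard error 0.17, adjusted p = 0.0196). Other E2f3 probes differed by more, at 0.91 and 0.92.

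E2f1 read 0.53, 0.68 and 0.83 on control arrays and 0.78, 0.94 and 1.20 with HDAC4 and 5, also with overlap. Its difference was 0.27 (standard error 0.07, adjusted p = 0.00493). Neither gene passed under normexp background correction or in the deposited matrix, and E2f3 did not pass without slide 1 or without slide 2. Within slides 1, 2 and 3 the difference of E2f3 was 0.45, 0.56 and 0.45, and that of E2f1 was 0.18, 0.20 and 0.42. Cyclin E genes and Cdk2 did not pass, with differences of 0.06 for Ccne1 (3 control and 4 HDAC4 and 5 arrays, as the spots of the others were marked as outliers), 0.28 for Ccne2 and 0.12 for Cdk2. With the replicate block Ccne2 passed (adjusted p = 0.00101 from limma).

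The promoters of 33 of the 40 genes were read from RefSeq (GRCm38.p6, 250 bases before to 50 after each start; 1 gene can have several) and searched on both strands for the letters CCAAT, for TTTGAA (the cell cycle homology element) and for the E2F letters TTTCCCGC, TTTCGCGC, TTTGGCGC and TTTGCCGC. The E2F letters stood in 6 of 12 S-phase genes, 3 of 5 genes of cyclin E, Cdk2 and E2F, 1 of 13 G2 and mitosis genes and 0 of 3 D-type cyclins and G1 kinases, against 2.6% of the 27025 genes with such a window. CCAAT stood in 12 of the 13 G2 and mitosis genes, 8 of 12 S-phase genes, 3 of 5 genes of cyclin E, Cdk2 and E2F and 1 of 3 D-type cyclins and G1 kinases, against 41.1% of all genes. TTTGAA stood in 10, 1, 2 and 0 genes of these groups, in the same order, against 20.2% of all genes. Such a match is a description of the letters in the window, not a binding site. Shown are E2f2, which fell, Mcm5, which rose with both CCAAT and E2F letters, Ccnb2 and Cdc20, which rose with CCAAT and TTTGAA, and Cdk1, which fell with letters of each kind, all 5′ to 3′ along the gene with the matched letters in capitals.
E2f2, chr4:136172024-136172323, plus strand: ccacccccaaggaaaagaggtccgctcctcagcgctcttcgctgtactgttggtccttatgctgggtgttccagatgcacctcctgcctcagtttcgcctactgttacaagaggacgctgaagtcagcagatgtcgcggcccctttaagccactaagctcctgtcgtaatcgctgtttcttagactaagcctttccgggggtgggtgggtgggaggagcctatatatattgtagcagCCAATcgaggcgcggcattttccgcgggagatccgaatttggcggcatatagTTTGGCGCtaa
Mcm5, chr8:75109259-75109558, plus strand: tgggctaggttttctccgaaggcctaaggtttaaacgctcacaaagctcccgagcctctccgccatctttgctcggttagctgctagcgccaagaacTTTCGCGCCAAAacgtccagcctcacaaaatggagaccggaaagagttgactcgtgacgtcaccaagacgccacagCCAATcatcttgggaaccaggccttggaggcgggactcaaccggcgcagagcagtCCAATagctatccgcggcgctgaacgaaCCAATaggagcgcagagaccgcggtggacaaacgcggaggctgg
Ccnb2, chr9:70421505-70421804, minus strand: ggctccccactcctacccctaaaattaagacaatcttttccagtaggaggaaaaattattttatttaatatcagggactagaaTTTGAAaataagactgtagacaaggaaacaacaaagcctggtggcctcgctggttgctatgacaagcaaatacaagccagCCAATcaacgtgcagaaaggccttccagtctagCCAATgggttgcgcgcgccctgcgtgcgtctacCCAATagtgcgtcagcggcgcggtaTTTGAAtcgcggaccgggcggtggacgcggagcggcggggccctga
Cdc20, chr4:118437294-118437593, minus strand: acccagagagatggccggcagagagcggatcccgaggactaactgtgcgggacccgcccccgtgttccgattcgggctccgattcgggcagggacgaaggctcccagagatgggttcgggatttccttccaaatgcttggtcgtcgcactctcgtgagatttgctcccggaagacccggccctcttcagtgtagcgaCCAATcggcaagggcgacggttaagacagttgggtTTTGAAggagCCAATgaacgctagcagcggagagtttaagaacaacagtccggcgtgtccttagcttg
Cdk1, chr10:69352863-69353162, minus strand: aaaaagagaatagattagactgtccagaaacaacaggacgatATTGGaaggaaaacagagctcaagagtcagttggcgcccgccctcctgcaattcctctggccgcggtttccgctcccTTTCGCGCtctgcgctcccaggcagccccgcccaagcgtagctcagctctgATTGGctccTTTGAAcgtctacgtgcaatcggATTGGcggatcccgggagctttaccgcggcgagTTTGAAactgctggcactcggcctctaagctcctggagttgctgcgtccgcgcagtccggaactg
E2f2 has a second window, not shown, with 3 CCAAT, 1 TTTGAA and no E2F letters. In the windows shown, E2f2 held 1 CCAAT and TTTGGCGC, Mcm5 held 3 CCAAT and, overlapping each other, TTTCGCGC and TTTGGCGC, Ccnb2 held 3 CCAAT and 2 TTTGAA, Cdc20 held 2 and 1, and Cdk1 held 3 and 2 with TTTCGCGC. The windows shown were chosen with the directions of their genes known, and whether letters go with a direction was not tested.

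Of the 13 S-phase genes, 6 were higher and 1 lower (against 35.4% and 31.1% of all genes tested), and 6 did not pass. With the replicate block, under which 75.4% of all genes passed, 9 were higher and 1 was lower, the added genes being Mcm6, Pcna and Tyms (adjusted p = 0.0302, 0.0156 and 0.000667 from limma). Cdt1 licenses origins with Cdc6. It read 4.35, 4.46 and 4.82 at the lowest, median and highest on 6 control arrays. It read 5.72, 5.81 and 6.10 on the 3 HDAC4 and 5 arrays whose spots were not marked as outliers. The groups did not overlap, and the difference was 1.34 (standard error 0.13, adjusted p = 8.58e-06). Cdc6 differed by 0.62 (standard error 0.06, adjusted p = 1.01e-06), also without overlap.

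The helicase genes gave differences on the same side of 0. Mcm5 read 3.69, 3.75 and 3.88 on control arrays and 4.45, 4.55 and 4.74 with HDAC4 and 5, a difference of 0.81 (standard error 0.06, adjusted p = 4.6e-08). Mcm3 read 4.70, 4.88 and 4.95 on control arrays and 5.46, 5.68 and 5.74 with HDAC4 and 5, a difference of 0.80 (standard error 0.07, adjusted p = 1.68e-07). Neither gene's groups overlapped. Mcm4 rose by 0.63, with its spot saturated on 1 control and 3 HDAC4 and 5 arrays and no call without slide 1, and Mcm2 by 0.54 over 6 and 5 arrays.

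The rise of Mcm2 did not hold with outlier spots kept, where its difference was 0.04, or in the deposited matrix, where it was -0.14. Mcm6, with 0.48 over 6 and 5 arrays, and Mcm7, with 0.11 over 5 and 4, did not pass in the main fit. Mcm6 was saturated on 2 control arrays and on all 6 with HDAC4 and 5. A saturated spot understates its level. Without control replicate 3, on which all 6 genes with any saturated spot were saturated, the S-phase median fell from 0.48 to 0.29.

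Rrm2, the regulated subunit of ribonucleotide reductase, read 3.63, 3.80 and 3.97 on 5 control arrays and 2.92, 2.98 and 3.15 with HDAC4 and 5. All arrays with HDAC4 and 5 were lower, and the difference was -0.77 (standard error 0.07, adjusted p = 1.29e-06), with -0.75, -0.74 and -0.78 within the slides. Its partner subunit Rrm1 differed by -0.05, Tyms by 0.19, Tk1 by 0.06 and the sliding clamp Pcna by 0.31. None of them passed in the main fit, which had no block (adjusted p = 0.533, 0.0933, 0.446 and 0.0717 from limma).

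Of the 16 genes of G2 and mitosis, 8 were higher and 1 lower (against 35.4% and 31.1% of all genes tested), and 7 did not pass. Ccnb2, cyclin B2, read 5.13, 5.44 and 5.72 at the lowest, median and highest on control arrays. With HDAC4 and 5 it read 5.97, 6.25 and 6.87, without overlap, and was saturated on 1 control and 3 HDAC4 and 5 arrays. The difference was 0.84 (standard error 0.15, adjusted p = 0.000192). Plk1, the mitotic polo kinase, read 4.73, 4.82 and 4.94, and 5.34, 5.45 and 5.55 on 5 arrays with HDAC4 and 5, a difference of 0.62 (standard error 0.06, adjusted p = 2.34e-06).

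Mki67, the proliferation marker Ki-67, read 4.83, 4.92 and 5.01 on 5 control arrays and 5.43, 5.47 and 5.78 on 5 with HDAC4 and 5. The difference was 0.60 (standard error 0.08, adjusted p = 4.73e-05), and groups did not overlap. Aurka, the Aurora kinase of the spindle poles, read 5.08, 5.22 and 5.33 on control arrays and 5.76 to 5.83 on the 3 arrays with HDAC4 and 5 that had no outlier mark. Its difference was 0.58 (standard error 0.07, adjusted p = 4.94e-05). Ccnb1, Cenpa, Cdc20 and Bub1 passed with smaller differences of 0.52, 0.52, 0.50 and 0.38. Dimmer probes of Ccnb1, well above background on every C2C12 array, differed by only 0.12 and 0.25.

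Some of these rises depended on the arrays or probes used. Cdc20 was saturated on 2 control and 5 HDAC4 and 5 arrays, and its adjusted p rose from 0.0439 to 0.0721 without control replicate 3. Mki67 did not pass with the mean of all its probes (adjusted p = 0.0806 from limma), Aurka under normexp (0.0533) or Ccnb1 in the deposited matrix (0.0548). Bub1 did not pass with the mean of all probes, under normexp or in the deposited matrix. Cdc20 also did not pass under normexp, without the filter on dim probes, with the methods' t-test after Benjamini-Hochberg adjustment or without slide 1. Of the probes of Bub1, the brighter differed by 0.38 and the other by -0.20. Without slide 2, 5 of the 16 genes passed in place of 9, and Cdc20, Bub1, Cenpa and Cdk1 did not, while the share of all genes that passed in either direction went from 66.5% to 59.0%.

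Cdk1, the kinase that drives entry into mitosis, went the other way from Ccnb1 and Ccnb2. It read 3.89, 4.08 and 4.30 on control arrays and 3.66, 3.79 and 4.07 with HDAC4 and 5. The ranges overlapped, and the difference was -0.29 (standard error 0.09, adjusted p = 0.014), with -0.31, -0.27 and -0.28 within the slides. Foxm1, the factor that drives mitotic genes, differed by -0.06 and Top2a, the topoisomerase of dividing cells, by 0.07, and neither passed (adjusted p = 0.391 and 0.379). Ccna2 (0.07, on 3 and 2 arrays), Bub1b (-0.09), Aurkb (0.16), Birc5 (0.23) and Kif11 (-0.13) did not pass either. With slide as a block in place of the replicate number, Kif11 passed as lower (adjusted p = 0.0359 from limma), with 75.8% of all genes called.

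In all, the levels of 17 of the 40 genes did not overlap between the groups, against 51.6% of all genes tested. The 23 genes that passed had the same sign within every slide that gave a value. Further cell cycle genes were read from lists written by hand, whose counts and medians were not recomputed in the deposited matrix or under other scalings. Of all genes tested 35.4% were higher and 31.1% lower, to be set beside each count. Of 39 other replication genes, 26 were higher and 2 lower, with a median of 0.38, and 1 of the 26, Orc6, had a value on only 1 HDAC4 and 5 array. Gins3, a subunit of the replicative helicase, rose by 1.36, Rfc4, of the clamp loader, by 1.22 (5 arrays each), and Cdc45, the helicase activator, by 0.98. Rpa1, which coats single-stranded DNA, fell by 1.20 and Rfc5, of the clamp loader, by 0.67.

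Of 50 other mitotic genes, 30 were higher and 3 lower, with a median of 0.34. Ttk, a kinase of the spindle checkpoint, rose by 1.93, Nek2, a centrosome kinase, by 0.85 and Aspm, a spindle pole protein, by 0.75. Spc25, of the kinetochore, fell by 0.44, Anln, of the contractile ring, by 0.33 and Nusap1, of the spindle, by 0.24. Of 16 other regulators of G1 and E2F tested, 7 were higher and 4 lower, with a median of 0.16. Myc, a growth factor target and transcription factor, rose by 0.94, Mybl2, which acts with the mitotic gene complex, by 0.89 and Ccnh, of the Cdk activating kinase, by 0.82 (3 arrays each). Ccng2, a cyclin of arrested cells, fell by 1.44, Cdk5, a kinase best known from neurons, by 1.41 and E2f7, a repressing E2F, by 0.35.

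The list of inhibitors and RB family members holds 10 genes, of which 7 were tested. Of these 4 were lower and 1 higher, beside 31.1% and 35.4% of all genes, with a median of -0.46. Rb1, the retinoblastoma protein, had a level of 1.92 to 2.42 on control arrays and 0.24 to 0.73 with HDAC4 and 5. There was no overlap, and the difference was -1.71 (standard error 0.13, adjusted p = 5.78e-08). Cdkn1a, the inhibitor p21, had a level of 3.48 to 3.76 and 1.88 to 2.28, a difference of -1.50 (standard error 0.08, adjusted p = 1.27e-09). Cdkn1b, the inhibitor p27, fell by 0.66 and Rbl2 (p130), an RB relative of resting cells, by 0.46, while Cdkn2c (p18) rose by 0.29. Cdkn2d and Rbl1 did not pass, with -0.09 and 0.27. Cdkn1c, Cdkn2a and Cdkn2b were not well above background on any C2C12 array and were not tested.

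**Figure D3:**
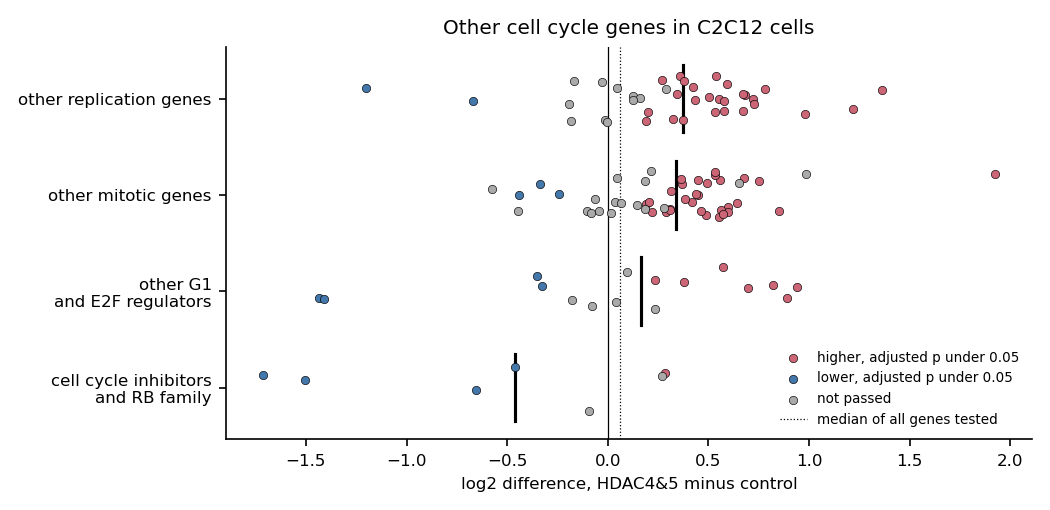
The log2 difference between HDAC4 and 5 and control C2C12 cells (x axis) of the genes tested in 4 further lists (y axis). Points are genes, black bars the median of each list, and the dotted line the median of all genes tested (0.06). Most replication and mitotic genes lie to the right of it, with medians of 0.38 and 0.34, and most inhibitors to the left, with -0.46.

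In soleus muscle, no cell cycle gene passed the test between db/db and control mice. The lowest p-values belonged to Ccnb2 and Cdc20, both with lower values in db/db muscle. Of the 40 genes, 26 cleared the background on all arrays of 1 group or both and were tested. The remaining 14, among them Top2a, Ccnb1, Cdk1 and Bub1, were too dim. Of all 13049 genes tested, 2 passed (0.0153%), Lep and Mup1, which are named because so few passed. At an unadjusted p under 0.05, 2 of the 26 genes passed, against 6.12% of all genes, and the groups of 3 did not overlap, against 9.8% of all genes. Muscle is a mixture of cell types, in which fewer cells of a type and less RNA per cell cannot be told apart.

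Ccnb2 had levels of -1.75, -0.75 and -0.84 in control mice and of -2.10, -2.78, -2.12 and -1.77 in db/db mice. Every db/db muscle lay below every control muscle, although control replicate 1 and db/db replicate 4 almost met. The difference was -1.08 (standard error 0.39, unadjusted p = 0.0239, adjusted p = 0.771 from limma), with -1.19 and -1.10 within the 2 slides. Cdc20 had levels of -0.29, 1.05 and -0.28 in control mice and of -0.70, -1.30, -1.08 and -0.62 in db/db mice.

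The groups of Cdc20 did not overlap either, with control replicate 2 far above the rest. The difference was -1.09 (standard error 0.42, unadjusted p = 0.0314, adjusted p = 0.804 from limma), with -1.39 and -0.57 within the slides. Cdt1, with -0.85, 0.07 and -1.06 in control mice and -1.36, -1.46, -1.08 and -1.34 in db/db mice, was the third gene without overlap, by a narrow margin. Its difference of -0.70 had an unadjusted p of 0.0875 from limma. With slide as a block, 50 genes passed in place of 2, and the adjusted p was 0.162 for Ccnb2, 0.247 for Cdc20 and 0.346 for Cdt1.

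**Figure D4:**
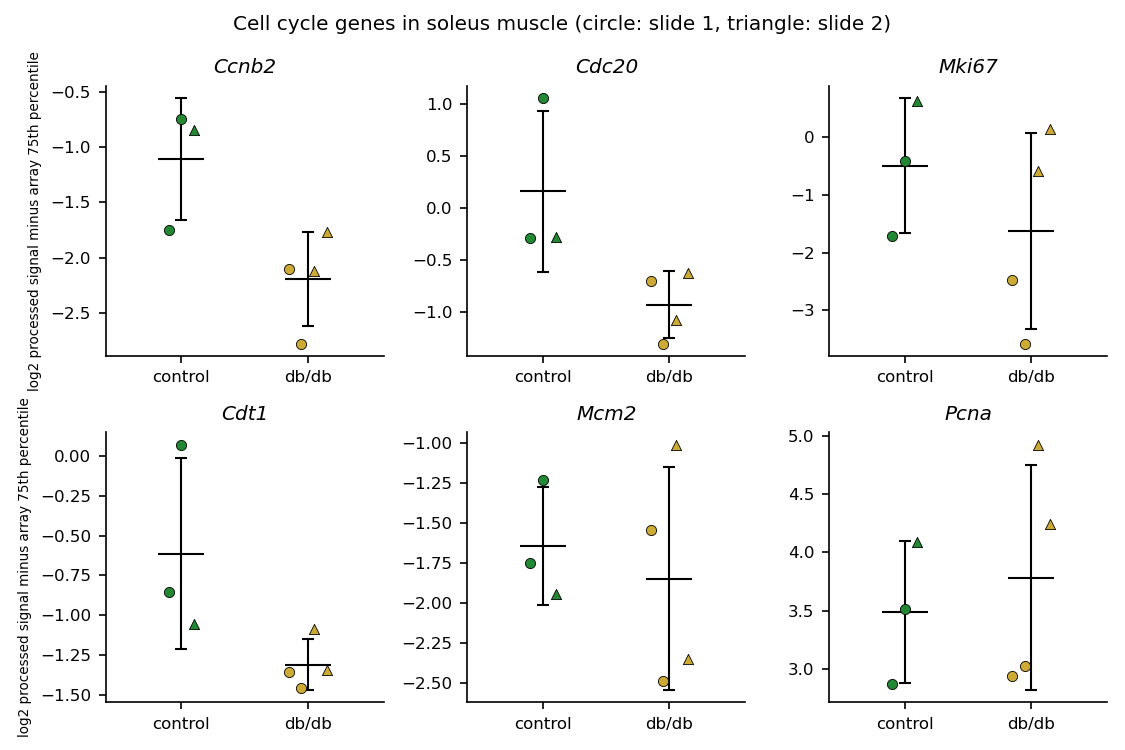
Level of Ccnb2, Cdc20, Mki67, Cdt1, Mcm2 and Pcna (y axis, log2 signal minus the array's 75th percentile) in control and db/db soleus muscle (x axis). Points are mice, with the slide as symbol, and bars the mean ± SD. The groups are apart for Ccnb2, Cdc20 and Cdt1 and overlap for the others, and Mki67 and Pcna are higher on slide 2 in both groups.

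The other genes of interest overlapped between the groups. Mki67 had levels of -1.70, -0.41 and 0.63 in control mice and of -2.47, -3.58, -0.59 and 0.14 in db/db mice, where it was well above background in 3 of 4. Its difference was -1.13 (standard error 0.93, adjusted p = 0.958), and both groups read higher on slide 2. Top2a was not well above background in any muscle. Pcna had levels of 2.88, 3.51 and 4.09 in control mice and of 2.94, 3.03, 4.92 and 4.24 in db/db mice.

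Pcna differed by 0.29 (standard error 0.56, adjusted p = 0.974), again with higher readings on slide 2. Mcm2 had levels of -1.75, -1.24 and -1.95 in control mice and of -1.54, -2.49, -1.01 and -2.35 in db/db mice, a difference of -0.20 (standard error 0.44, adjusted p = 0.975). The D-type cyclins did not pass either. Ccnd1 differed by 0.20 (standard error 0.35), Ccnd2 by 0.32 (standard error 0.32) and Ccnd3 by 0.29 (standard error 0.75), with adjusted p-values of 0.97, 0.968 and 0.976.

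Each D-type cyclin overlapped between the groups. Ccnd2 had levels of 2.23, 2.01 and 2.00 in control mice and of 2.12, 2.21, 2.38 and 2.86 in db/db mice. Ccnd1 had levels of 0.83, 0.25 and 0.48, and of 0.57, 0.23, 0.90 and 1.16. Ccnd3 had levels of 0.46, 0.71 and 2.57, and of 1.00, 0.09, 2.48 and 2.56. For Ccnd3 the mice on slide 2 stood apart from those on slide 1 in both groups.

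As some genes were tested only because they were well above background in 1 of the groups, medians are given over the genes well above background on every array of both groups. They were 0.20 for 5 D-type cyclins and G1 kinases, 0.22 for 4 genes of cyclin E, Cdk2 and E2F, -0.25 for 10 S-phase genes and -0.63 for 4 genes of G2 and mitosis, beside 0.16 for all 11620 such genes. Within slide 1 the median of the 10 S-phase genes was -0.45 and within slide 2 it was 0.02, and that of the 4 genes of G2 and mitosis was -0.87 and -0.42. For 14 other mitotic genes the median was -0.59, with 9 below 0, and for 30 other replication genes it was 0.22. No gene of the other cell cycle lists passed limma. At an unadjusted p under 0.05, against 6.12% of all genes, 3 of 32 other replication genes passed, with Chaf1a (1.12) and Fen1 (0.86) above 0 and Prim1 (-0.78) below. Of 21 other mitotic genes 1 passed at that p, Cenpf, tested only through the control mice, as it was well above background in 1 of 4 db/db mice. Of 9 inhibitors and members of the RB family 1 did, Cdkn1a (-0.95).

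Markers of cells other than fibres were read beside these values, and 0 of them passed limma. Endothelial markers summed to 25.1 to 35.5 in control mice, led by Vwf, Cdh5 or Kdr, and to 14.0 to 31.8 in db/db mice, led by Vwf or Cdh5, and 7 of 7 had differences below 0, with a median of -0.34. Macrophage markers summed to 39.1 to 138 and to 49.6 to 150, led by Lyz2, and 6 of 8 had differences above 0, with Csf1r (1.16) and C1qa (0.77) at an unadjusted p under 0.05 from limma. Of the erythroid markers Ahsp, the chaperone of alpha globin, was well above background in 3 of 3 control and 0 of 4 db/db mice and was at least 5.18-fold lower (unadjusted p = 0.00175, adjusted p = 0.407 from limma), or at least 2.35-fold without control replicate 1. The 2 erythroid markers well above background in every muscle had differences below 0, with a median of -0.87. Their sums were 149 and 148 in control replicates 2 and 3 and 89.8 to 174 in db/db mice, led by Hba-a1 (saturated in 2 mice of each group), while control replicate 1, where the Hba-a1 spot had an outlier mark and was left out, had 20.4, led by Alas2. Epb42, of the red cell membrane skeleton, was not well above background in any muscle. All 10 fibre markers were well above background in every muscle, with sums of 1392 and 2671 in the 2 control and 1276 to 2604 in the 3 db/db mice with no dropped marker, understated by saturated spots, and the part of any of these cells in the cell cycle values was not tested.

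Control soleus muscle was set against control C2C12 cells to show how the genes stood in a tissue whose fibres do not divide. The S-phase and mitotic genes that could be measured in both were lower in muscle, and Ccnd2 and E2f3 were higher. Of the 40 genes, 2 were higher and 38 lower at an adjusted p of 0.05, against 32.5% higher and 32.9% lower of the 15065 genes tested (65.5% in either direction). Under normexp and without soleus control replicate 2, 36 were lower, and Ccne2 and Cdk2 did not pass (Cdk2 being undetected in soleus, with a value of 0.27 under normexp). The groups of all 40 did not overlap, against 69.7% of all genes. However, 14 of the 40 were tested only because they were well above background in C2C12 cells, so these counts are no support. Of the 26 well above background on every array of both groups, 2 were higher and 24 lower, against 31.4% and 31.8% of 11124 such genes. Tissue and array slide cannot be told apart here, as the cells and the muscles were on separate slides. Over these 26, the median difference was -1.98 for 5 D-type cyclins and G1 kinases, -2.23 for 4 genes of cyclin E, Cdk2 and E2F, -3.95 for 11 S-phase and -6.14 for 6 genes of G2 and mitosis, beside -0.02 for all such genes. Over all 16 genes of G2 and mitosis, with those undetected in soleus at their bound, it was -5.62. These C2C12 arrays are also the controls of the comparison above.

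**Figure D5:**
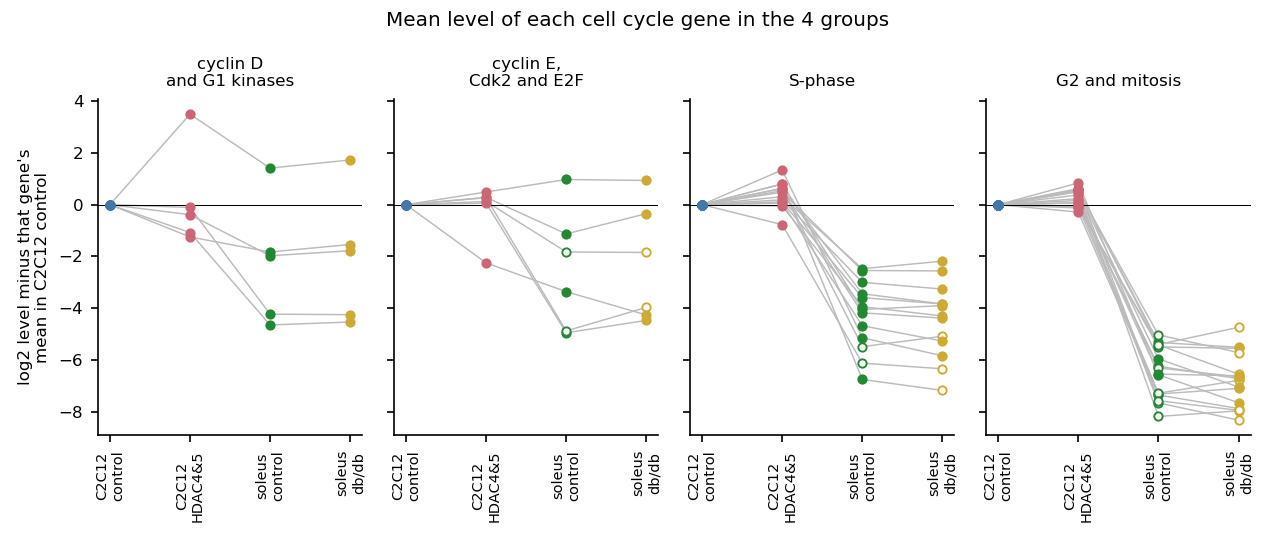
Mean level of each of the 40 genes in the 4 groups (x axis), as the log2 difference from that gene's own mean in control C2C12 cells (y axis). Lines join the values of a gene, and open points mark groups in which it was not well above background on every array. In control soleus 26 of 40 points are filled and in db/db soleus 23. The median limma difference in control soleus, fitted with slide as a block and not plotted here, is -6.14 for the 6 filled mitotic genes. It is -3.95 for the 11 filled S-phase genes.

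Ccnd2 was 2.63-fold higher in control soleus (log2 difference 1.40, standard error 0.19, adjusted p = 9.51e-05) and E2f3 2.07-fold higher (1.05, standard error 0.26, adjusted p = 0.0048). With the mean of all probes of a gene, E2f3 was lower in soleus and Ccnd2 alone of the 40 was higher. Ccnd1 was 3.95-fold and Ccnd3 3-fold lower, and Cdk4 and Cdk6 21.3-fold and 27.1-fold lower. Mcm5 was 116-fold lower, the largest fall among S-phase genes well above background on every array of both groups, whereas Mcm6 and Pcna, saturated on 2 and 1 control C2C12 arrays and so understated there, were 5.51-fold and 5.16-fold lower as measured.

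In control soleus, the probes used for 10 of the 40 genes were not well above background in any mouse, so that their falls are bounds. For Bub1 the bound holds for the probe used only, as another was well above background in every control muscle. Ccnb1 was at least 79.2-fold lower, Bub1 53.0-fold, Bub1b 44.0-fold, Top2a 38.3-fold, Aurkb 18.8-fold, E2f1 17.6-fold, Cdc6 14.9-fold, Cenpa 13.4-fold, Kif11 9.27-fold and Cdk2 1.21-fold. Among mitotic genes measured in every control muscle, Ccnb2 was 92.2-fold, Cdc20 65.8-fold and Mki67 36.8-fold lower as measured, with Ccnb2 saturated on 1 and Cdc20 on 2 control C2C12 arrays and so understated there. In other lists, of the genes well above background on every array of both groups, 19 of 20 mitotic and 25 of 32 replication genes were lower in soleus, against 31.8% of all such genes. Pttg1, the securin, was the mitotic gene that did not pass (0.84, adjusted p = 0.134 from limma). Of 7 inhibitors and RB family members well above background in both, Rbl2 was higher (1.98), Cdkn1a and Rbl1 were lower (-3.26 and -3.04) and 4 did not pass. Cdkn1c (p57), at least 319-fold higher in soleus, and Cdkn2b (p15), at least 56.5-fold higher, were tested only through soleus.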

How the data were processed

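RNA from 19 samples was labelled with Cy3 and read on 1-colour arrays with Agilent Feature Extraction 9.5.1.1, per the submitters' processing notes. The deposited processed signal intensity is background-subtracted within each array and was not scaled between arrays by the authors. The authors' deposited matrix holds linear ratio values with a scaling that is not stated, and served as an alternative by group, since its mouse columns could not be tied to single mice. Control spots and those with an outlier mark were dropped, spots of a probe were averaged, and the log2 signal was centred on the array's 75th percentile.

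Of 41174 probes, 27198 were matched by accession to RefSeq names (GRCm38.p6), and probe positions are those of the files (mm9). Genes that cleared the background on all arrays of 1 group or both were tested with limma 3.58.1 (lmFit, eBayes) in R 4.3.3 with Benjamini-Hochberg adjustment at 0.05, each comparison on its own groups, with slide as a random block between tissues. Call counts of members use this adjustment over all genes tested. The test was also run on simulated data, of which no result is given here. Array number limits the precision. The smallest exact permutation p for 3 against 4 mice is 0.0571.

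Members and gene lists were chosen with earlier results of these data known. Genes described in full were the D-type cyclins, up to 4 members per group with the largest differences past the threshold in C2C12 cells, members at an unadjusted p under 0.05 in soleus with Mki67, Top2a, Pcna and Mcm2, and the 3 largest rises and falls of other lists. Other genes were named after their values were seen.

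Replicate numbers followed slides, with replicates 1 and 2, 3 and 4, and 5 and 6 of both cell groups on slides 1, 2 and 3. Deviations of same-numbered samples correlated at 0.314 to 0.683 in C2C12 cells and 0.491 to 0.752 in soleus, against -0.640 to 0.0866 and -0.774 to -0.437 between slides. Different-numbered samples on 1 slide correlated as highly (0.362 to 0.703 and 0.416 to 0.810). A number thus stands for its slide, and samples were paired through it only under the block settings. The main fit within cells and within muscle has no block and leaves this pairing out, and some genes that did not pass in it passed with a block. The alternatives changed the background correction, normalization, filter, probe rule, blocks, test and samples.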

Additional observations from a re-analysis of the deposited data

Results flagged for a closer look

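In 7 of 112 groups of member levels, 1 array stood farther from the others than Dixon's 95% limit, where chance gives about 5.6. On C2C12 control replicate 3, Mcm6 had a level of 5.37 with the nearest array at 6.20, Pcna one of 5.30 with the nearest at 5.96, and Birc5 one of 5.25 with the nearest at 5.96. All 3 spots were saturated on that array, which had the highest 75th percentile, 1639. Ccnd2 had a level of 4.00 on HDAC4 and 5 replicate 3 with the nearest array at 4.17, and Mki67 one of 5.78 on HDAC4 and 5 replicate 6 with the nearest at 5.49. In db/db soleus replicate 1, Bub1b had a level of -2.52 with the nearest array at -5.43, and Cenpa one of -5.24 with the nearest at -5.47.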

How the results depend on the processing

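In C2C12 cells, 20 of the 23 called genes had a value under all 15 alternatives that set no minimum fold, and 11 of them passed in each, namely Ccnd1, Ccnd2, Ccnd3, Cdc6, Cdk6, Cdt1, E2f2, Mcm3, Mcm5, Plk1 and Rrm2. Ccnb2, Cdc20 and Mcm4 had no value in the deposited matrix, and Ccnb2 passed under the other 14. Of 635 values of single genes under an alternative, 581 kept their side of the threshold, and their direction where they passed. A gene that did not pass could change sign within this count. A minimum of 1.5-fold left 5365 genes and 13 members. In the deposited matrix 15 of 36 members passed (9 higher, 6 lower), and all genes split 2700 higher to 4384 lower against 5007 to 4406. The D-type cyclin median there was -0.58. Over the 11 S-phase and 14 G2 and mitosis genes with a value there, the medians turned to -0.00202 and -0.0578. Mcm2 turned to -0.14. The cause of these shifts was not tested. The D-type cyclin median was -0.48 under normexp, and the S-phase median 0.17 under quantile normalization, 0.31 with outlier spots kept and 0.29 without C2C12 control replicate 3 (the last 2 settings were chosen after seeing the data). With slide as a block, 10724 genes and 29 members (21 higher, 8 lower) passed in C2C12 cells. With the replicate block, 10666 genes and 28 members (21 higher, 7 lower) passed in C2C12 cells, the added members being Ccne2, Cdk4, Mcm6, Pcna and Tyms, and 3 genes and 0 members in soleus. In soleus, where 2 genes passed, 0 passed under normexp, with the filter on both groups and in the deposited matrix, 1 without a filter and with outlier spots kept, and 50 with slide as a block (40 higher, 10 lower). Leaving out single mice gave 0 to 1 genes. The methods' t-test called 939 genes and 3 members unadjusted and 1 gene after Benjamini-Hochberg adjustment; 0 members passed under every other alternative run. Between tissues, 20504 genes passed without a filter, and 26 members with the filter on both groups, which tests fewer genes. Under normexp and without soleus control replicate 2, 38 members passed in place of 40 (2 higher, 36 lower), with Ccne2 at -0.76 and -0.99 and Cdk2 at 0.27 and -1.66. Dim probes limit soleus, where 14 members could not be tested with the probe used.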
